A study of Mus musculus with 16 samples.

Results

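Liver RNA from 8 mice of the mutant CerS2 lines was compared with that of 8 mice of the control lines, so that the comparison uses all 16 samples of the series. The mutant class holds 4 H/A mice and 4 mice called Del (condition delHox), and the control class holds 4 WT mice and 4 mice called Flox (condition delneo). All 16 mice were 6-week-old males of a mixed C57BL/6 and SV129 background with the same tissue and age. What the H/A, delHox and delneo alleles contain, and in which cells they act, is not given in the sources used here, and each line rests on its own 4 mice. Of the 60037 probes, 36264 could be given a gene symbol, and 31480 genes (17662 with a symbol) were bright enough to be tested. Probes that could be named as Cers2 itself were not analysed here, so the targeted gene does not check the labels.

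Ceramide synthases join a fatty acid to a sphingoid base. CerS2 is the main ceramide synthase of the liver and uses very long acyl chains, while CerS5 and CerS6 use shorter ones such as palmitate. The ceramide made is turned into sphingomyelin and glycosphingolipids of cell membranes, and these are broken down again in lysosomes. In liver, hepatocytes do most of this work, beside their roles in bile formation, detoxification and the secretion of plasma proteins.

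The 16 samples occupied 16 subarrays, 8 on each of 2 slides. By the labels, slide 1 held 3 H/A, 1 Del, 2 WT and 2 Flox samples and slide 2 held 1 H/A, 3 Del, 2 WT and 2 Flox samples, so each slide carried 4 mutants and 4 controls. For 6 of the 16 samples (H/A replicate 4, Del replicate 1, WT replicate 3 and Flox replicates 1, 2 and 4) the scanner file listed for the sample is not the one at the slide and position of its label. The value table of these samples matched the file at the labelled position (r over probes from 0.885 to 0.996 over all 16 samples) and not the listed file (at most 0.168), and the value table was used by sample. Because these 6 samples go against their listed files, counts are also given from the 10 arrays whose label and file agree (3 H/A, 3 Del, 3 WT and 1 Flox). Between 51.6% and 65.2% of probes were marked as well above background on mutant arrays and between 55.5% and 63.5% on control arrays. Principal component 1 (43.0% of variance) set the classes apart, at -92.6 to -19.0 for mutants and 10.96 to 65.1 for controls. The control nearest to the mutants on it was WT replicate 2. A further control, Flox replicate 1, which is 1 of the 6 samples, stood apart from the other 7 in sex-biased genes, and those results are given with and without it. Hepatocyte markers such as Alb were well above background on all 16 arrays (10 of 10 tested), and their mean log2 level ran from 14.47 to 14.61 in mutants and from 14.38 to 14.53 in controls.

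The question was which genes moved together in both mutant lines and against both control lines. A gene was called at a limma adjusted p under 0.05 over all 31480 genes, with the slide as a block. In the pooled comparison 16580 genes were called, which is 52.7% of those tested, 6700 of them higher in mutants (21.3%) and 9880 lower (31.4%). Of these, 16531 (52.5%) also had the same sign in each of the 4 single-line comparisons (H/A with WT, H/A with Flox, Del with WT, Del with Flox). These are called consistent genes below, and "rose" and "fell" are used of them. They comprise 6683 that rose (21.2%) and 9848 that fell (31.3%), and the other 49 called genes had mixed signs. The shares of 21.2% and 31.3% are the background for the counts in gene lists below. The same sign in all 4 was seen for 46.4% of genes that were not called, since the 4 comparisons share samples.

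The direction of small differences depended on the scaling between arrays. The deposited values are quantile normalised, and the median difference of all genes was -0.14 (log2). Without any scaling between arrays the median was 0.11, and 9125 genes were called, 95.5% of them higher in mutants against 40.4% in the scaled values. Of the 4541 consistent risers with a symbol, 4529 stayed consistent risers without scaling, whereas 241 of 5200 fallers did. Leaving out the scaling raised the median of all genes, so it keeps rises more readily than falls. Under 75th percentile scaling, normexp with quantile scaling, and centring on the tested genes, 4830, 4756 and 4931 of the 5200 fallers were kept. Of the risers, 4404, 4433 and 4541 were kept under these. The unscaled 75th percentile of the array signal was 91.2 to 173 in mutants and 86.0 to 112 in controls. Among the gene lists described here, few falls were called without scaling. No list outside the male-biased, small nucleolar RNA, P450, bile acid and fatty acid synthesis lists then had more than 1 faller. On the 10 arrays whose label and listed file agree, 3578 genes were called (2572 higher and 1006 lower), and 3362 of the consistent genes were consistent there too. As background for list counts on these arrays, 2517 of the 31480 genes were consistent risers there and 989 consistent fallers.

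The consistent genes were sorted by how many of the 4 single-line comparisons also called them. All 4 called 1905 genes (6.05% of genes tested), of which 1573 rose (5.0%) and 332 fell (1.05%), and their median sizes were 1.06 and 0.84 (log2). At the other end, 829 risers and 1873 fallers were called in none of the 4 and reached the threshold only in the pool of 8 against 8. Their median sizes were 0.38 and 0.33. Of the 1168 risers with a symbol that all 4 called, 1168 were consistent under each of the 4 other scalings and with each array left out, and 1128 were on the 10 arrays with agreeing files. Of the 199 fallers that all 4 called, 107 stayed consistent without scaling and 184 on the 10 arrays. In bulk liver, fewer cells of a type and less RNA per cell cannot be told apart.

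**Figure D1:**
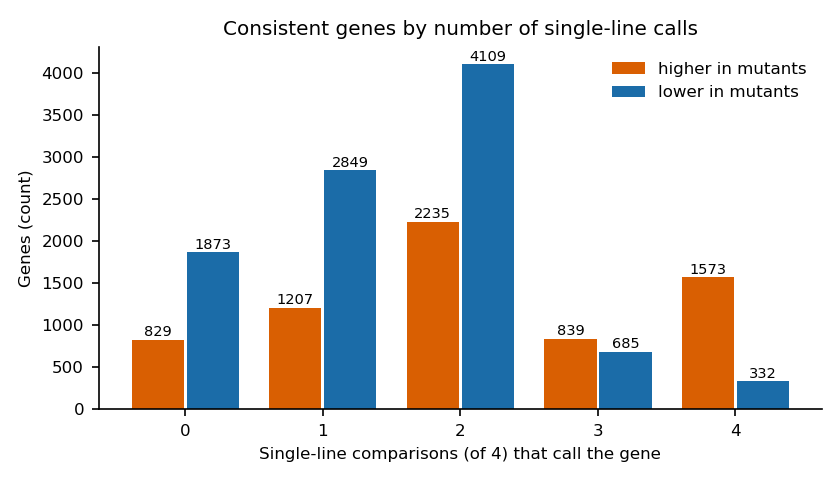
Number of consistent genes (y axis) by how many of the 4 single-line comparisons also called them (x axis), for genes higher and lower in mutants. Genes called in all 4 are mostly risers (1573 against 332), while genes called in none are mostly fallers (1873 against 829), a split that depends on the scaling between arrays.

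Among the largest rises were Atf3 and Ly6d, and both were far from overlapping. Atf3 encodes a stress-induced transcription factor of the ATF/CREB family. It was not well above background on any control array, where its log2 value was 1.20 at the lowest, 2.28 at the median and 3.23 at the highest, and it read 6.46, 7.49 and 7.88 on the 8 mutant arrays. The lowest mutant thus stood above the highest control by more than the whole control range. The difference was 5.14 (95% interval 4.50 to 5.79, limma adjusted p = 5.01e-08), and the level was at least 15.1-fold higher in mutants, with each control array set at its dimmest signal well above background or at the probe's own, whichever was higher. Ly6d encodes a small membrane-anchored protein of the Ly6 family. Its log2 value was 9.71, 10.65 and 12.27 (lowest, median and highest) in mutants and 5.85, 6.17 and 6.45 in controls, a difference of 4.69 (4.15 to 5.23). Its probe was well above background on all 16 arrays. Of 3 further stress and AP-1 genes, Jun rose by 2.23 and Jund by 1.52, both partners of ATF3 in AP-1 dimers, and Trib3, a pseudokinase induced by the integrated stress response, rose by 1.25. The unfolded protein and integrated stress response list as a whole gave 8 risers of 32 tested (25%, near the 21.2% of all genes tested) and 3 fallers. Chac1 was 1 of the fallers, at -0.52 and at -0.12 without scaling. On the 10 arrays with agreeing files the list gave 1 riser and 0 fallers.

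Several large risers act in lipid handling and nutrient sensing. Osbpl3, an oxysterol-binding protein of membrane contact sites, read 5.16, 6.00 and 6.88 in mutants and 1.38, 1.55 and 2.39 in controls. The groups did not overlap, the difference was 4.24 (3.71 to 4.76), at least 5.57-fold. Its second probe gave 2.40. Rragd, a Rag GTPase that recruits mTORC1 to lysosomes, read 4.91, 5.74 and 6.61 in mutants and 1.39, 1.71 and 2.96 in controls, at least 4.84-fold higher in mutants. Scd2, a fatty acid desaturase, rose by 2.25, the nuclear receptor Pparg by 1.63 and the lipoprotein lipase gene Lpl by 2.10. For these 3 genes, too, the 8 mutant values lay above all 8 control values.

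The other leading risers were Ubd (4.49), which encodes a ubiquitin-like modifier induced by interferon, Gipc2 (4.34), which encodes a PDZ-domain protein, Lysmd2 (4.22, at least 8.49-fold), Fndc10 (4.12), the centralspindlin subunit Racgap1 (3.86) and the protease inhibitor Slpi (3.82). Gsta1 (4.16) and Gsta2 (4.03) encode glutathione transferases. Their probes shared at most 6 bases in a row, although the family's transcripts are alike. Cyp2b13 rose by 4.07 with wide spread, and its 3 probes ran from 1.44 to 4.07. The log2 value was 4.32 at the lowest of the mutants and 8.33 at the highest of the controls, whose median was 1.27. Cyp2b13 overlapped between the classes and was called in none of the 4 single-line comparisons. All 12 of the largest rises kept their call under each scaling, with each array left out and on the 10 arrays with agreeing files.

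**Figure D2:**
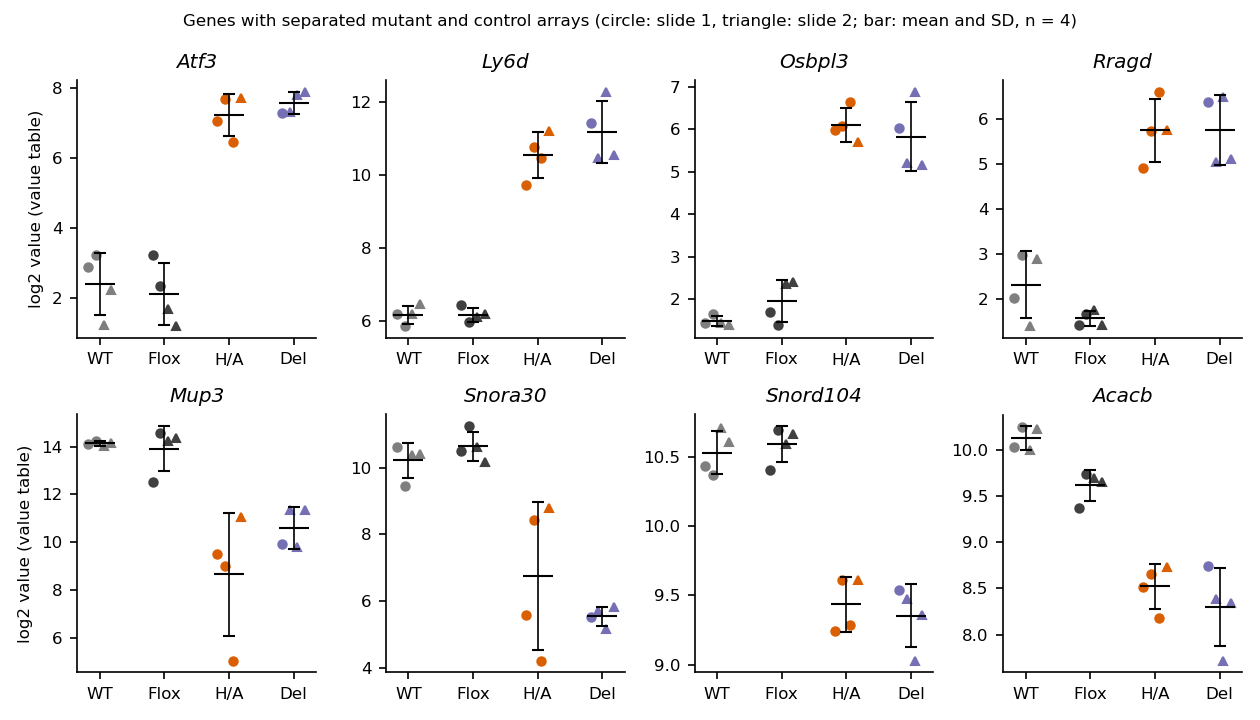
Log2 value of leading genes on each of the 16 arrays, by genotype, with circles for slide 1, triangles for slide 2 and bars for the mean and SD of 4 mice. In all 8 genes shown the 8 mutant values (H/A and Del) lie on one side of the 8 control values (WT and Flox), above them for Atf3, Ly6d, Osbpl3 and Rragd and below them for Mup3, Snora30, Snord104 and Acacb.

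Genes more abundant in male than in female mouse liver led the falls. Such genes are set by the pulsatile growth hormone of males, and all mice here were males. Of 33 male-biased genes tested, 0 rose and 23 fell (69.7%, against 31.3% of all genes). Their median difference was -1.29 against -0.14 for all genes. Without scaling 18 fell, and on the 10 arrays with agreeing files 20. Leaving out Flox replicate 1 gave 24 fallers and a median of -1.33. Hsd3b5, a steroid dehydrogenase, read 4.46, 5.36 and 6.25 in mutants and 6.09, 11.77 and 12.67 in controls (lowest, median and highest). It fell by 5.86 (-7.36 to -4.36), and the lowest control, Flox replicate 1, lay within the mutant range. The next control stood at 11.20. Other large falls were those of Serpina4-ps1 (-6.70), Serpina12 (-4.12) and the elongase gene Elovl3 (-4.99), in each of which Flox replicate 1 was the lowest control. The relative Hsd3b4 was not well above background on any mutant array and was at least 4.97-fold lower there. That is its brighter probe (-4.07), and its other probe gave -1.28.

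Major urinary proteins carry pheromones, and Mup3 fell without overlap between the classes. It read 5.06, 9.86 and 11.37 in mutants, the lowest being H/A replicate 3, and 12.52, 14.17 and 14.55 in controls, the lowest being Flox replicate 1, a difference of -4.38 (-5.68 to -3.09). Mup14 fell by 3.68 with overlap, since its highest mutant was at 13.65 and its lowest control at 12.69. The organic anion transporters Slco1a1 and Slco1a6 fell by 3.81 and 3.98, and the sulfotransferase Sult5a1 by 3.66 (its 3 probes ran from -3.66 to -0.84). All of these falls kept their call in the unscaled values and on the 10 arrays.

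Of 27 female-biased genes tested, 12 rose (44.4%) and 4 fell (14.8%), against 21.2% and 31.3% of all genes, with a median of 0.73. The P450 genes Cyp3a41a, Cyp3a44 and Cyp3a16 rose by 1.66, 1.64 and 1.62. Rtn4, a reticulon of the endoplasmic reticulum, rose by 1.96 (its 3 probes ran from 0.60 to 2.48). Cyp3a41a read 11.36, 11.63 and 11.96 in mutants and 9.37, 9.92 and 11.38 in controls, where Flox replicate 1 was the highest and the next stood at 10.09. Leaving out Flox replicate 1 gave 12 risers and 4 fallers in the list. Within slides the median of the female-biased list was 0.81 on slide 1 and 0.20 on slide 2, and that of the male-biased list was -1.42 and -0.89. The difference between slides was not tested over lists, and the slides also differ in their mix of H/A and Del mutants.

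The probes of these gene families are shown because near-identical genes can share signal. In each pair the capitals mark the longest run of bases common to both probes, which is 13 bases for the Mup pair and 26 bases for the Cyp3a pair. The longest run does not count further bases that match outside it, and binding of a probe to the other transcript was not tested. The Cyp3a values therefore cannot be assigned with certainty to single genes, and the Mup values are not shown to be gene-specific either.
Mup3: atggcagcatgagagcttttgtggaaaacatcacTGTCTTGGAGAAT
Mup14: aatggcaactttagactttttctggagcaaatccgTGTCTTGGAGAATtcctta
Cyp3a41a: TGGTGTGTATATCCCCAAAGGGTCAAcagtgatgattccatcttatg
Cyp3a44: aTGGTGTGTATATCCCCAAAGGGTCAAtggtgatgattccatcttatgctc

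Small nucleolar and Cajal body RNAs guide chemical modification of ribosomal and spliceosomal RNA and are mostly processed from introns of host genes. Of 89 tested, 1 rose and 84 fell (94.4%, against 31.3% of all genes), with a median of -1.17. Without scaling 56 fell, and on the 10 arrays with agreeing files 67 fell. Snora30 read 4.22, 5.65 and 8.78 in mutants and 9.46, 10.46 and 11.24 in controls, and its difference was -4.27 (-5.44 to -3.10). Snord104 had a smaller difference with a narrow spread. It read 9.03, 9.42 and 9.61 in mutants and 10.37, 10.61 and 10.71 in controls, a fall of 1.17 (-1.37 to -0.97, limma adjusted p = 8.59e-07). Snora16a fell by 2.21 and Snord99 by 1.03, and the mutant and control arrays of both did not overlap. In Snora2b, which fell by 3.73, the median mutant was at 1.50 and the highest at 5.76, above the lowest control at 4.99. Its H/A values were 1.39, 5.56, 1.36 and 5.76, while its Del values ran from 1.365 to 1.73. The comparison of H/A with WT did not call it (limma adjusted p = 0.0891). Snora30 was also spread in H/A, from 4.22 to 8.78, against 5.16 to 5.82 in Del. For neither gene was the difference between the mutant lines called. The Snord104 probe is shown as that of the member with the smallest p in the list.
Snord104: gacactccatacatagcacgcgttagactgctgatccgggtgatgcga

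The arrays of the classes did not overlap at all for 1796 genes (5.71% of those tested), 1414 of them higher in mutants (4.49%) and 382 lower (1.21%). All but 1 of these were called in the pool, and 1321 were called in all 4 single-line comparisons. The widest gaps among risers belonged to Atf3, Ly6d, Osbpl3, Rragd, Fndc10 and the intracellular protease inhibitor Serpinb6a, which read 7.93, 8.52 and 9.68 in mutants and 5.65, 5.93 and 6.10 in controls. Among fallers, Mfsd4b1, a transporter of the major facilitator family, read 8.10, 8.77 and 9.53 in mutants and 10.18, 10.28 and 10.44 in controls, a fall of 1.43. Of the 89 small nucleolar and Cajal body RNA genes, 40 fell without overlap.

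Modest genes are the consistent genes under 1 log2 unit in size that no single-line comparison of 4 against 4 called. There were 2648 (8.41% of genes tested), 801 of them higher (2.54%) and 1847 lower (5.87%). Their sizes (log2) ran from 0.16 to 1.00 with a median of 0.34, and 2243 of the 2648 were well above background on all 16 arrays. In simulated data of independent noise, 200 of 31480 genes were changed. Of those changed by 0.5, 36.8% were recovered, and of those changed by 1, 86.8%. The simulation had no slide effect and far fewer changed genes than were called here, so these shares do not carry over to the modest genes. The count of modest genes rose to 5204 without Flox replicate 1, to 4498 without Flox replicate 3 and to 4110 without Flox replicate 4. On the 10 arrays with agreeing files, 33 of 493 modest risers and 38 of 948 modest fallers with a symbol were consistent.

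The modest rises held under other scalings. Of 493 with a symbol, 487 were consistent risers without scaling, 420 under all 4 other scalings, and 224 also with each array left out. Their median was 0.37, which is 0.51 above the median of all genes, and without scaling it was 0.56 above. Ugt2b34, a UDP-glucuronosyltransferase, had the smallest p among them. It read 10.60, 10.83 and 11.09 in mutants and 10.17, 10.44 and 10.71 in controls, so the classes overlapped by a small part of their range. Its difference was 0.38 (0.19 to 0.58, limma adjusted p = 0.00376), and the 4 single-line differences ran from 0.32 to 0.44, with none called. Clptm1, a membrane protein of the endoplasmic reticulum, rose by 0.29 (0.14 to 0.44) with single-line differences from 0.26 to 0.33.

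The other named modest risers included Upf1 (0.34), the helicase of nonsense-mediated decay, Cenpq (0.34), a subunit of the kinetochore, and Ift22 (0.32) and Wdr35 (0.98), which belong to intraflagellar transport in cilia. Lpin3, a phosphatidate phosphatase, rose by 0.76 with the brighter of its probes, and its other probe gave -0.39. The tetraspanin Tspan17 rose by 0.81 and Fam102a by 0.66. Mrgprb3 rose by 0.92, Ccdc82 by 0.43 and Ttc9c by 0.42. All 12 were called under each scaling and with each array left out. On the 10 arrays with agreeing files 4 of the 12 were called, namely Tspan17 (1.07), Upf1 (0.49), Fam102a (0.98) and Cenpq (0.47).

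The modest falls depended on the arrays being scaled. Of 948 with a symbol, 794 stayed consistent fallers under 75th percentile scaling, 738 under normexp with quantile scaling and 778 under centring. Without any scaling 0 were consistent fallers by limma, and 671 kept their sign. The median of the 948 was -0.33, or 0.19 below the median of all genes, and without scaling it was -0.05, or 0.16 below. Blnk, an adaptor of the B cell receptor, read 6.28, 6.59 and 6.79 in mutants and 6.90, 6.998 and 8.10 in controls. The classes did not overlap, and the difference was -0.62 (-0.93 to -0.30), against -0.33 without scaling (limma adjusted p = 0.262). Homer1, a synaptic scaffold gene, fell by 0.38 with its brightest probe, while its other probes gave up to 0.23. The zinc finger gene Zic5 fell by 0.33 and stood at 0.01 without scaling. B4galnt2, a glycosyltransferase of membrane glycans, fell by 0.33 and stood at -0.08 without scaling. None of the 12 named modest falls was called without scaling, and on the 10 arrays with agreeing files Ncan (-0.57) and Bean1 (-0.72) were. Of the modest genes 8 did not overlap between the classes, among them Blnk, Zic5, Pgrmc1 (0.28), a haem-binding partner of P450 enzymes, and Dcaf12 (0.21). Pgrmc1 and Dcaf12 were chosen after their values were seen.

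**Figure D3:**
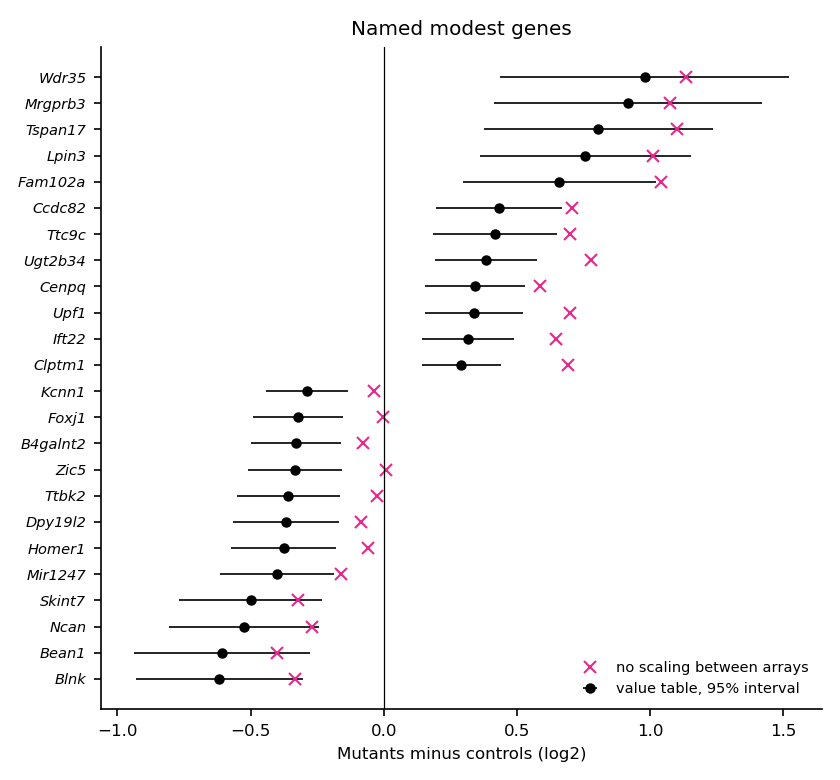
Difference of mutants minus controls (x axis, log2) for the 24 named modest genes, with the 95% interval in the quantile-normalised values as a line and the unscaled difference as a cross. The 12 rises are larger without scaling, while the 12 falls move towards 0 and Zic5 passes it at 0.01.

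The sphingolipid genes were described in the order of the pathway. Of 39 tested, 22 rose (56.4%, against 21.2% of all genes) and 7 fell, with a median of 0.32. Without scaling 23 rose and 0 fell, and on the 10 arrays with agreeing files 14 rose and 0 fell. Serine palmitoyltransferase makes the first sphingoid base. Its subunit gene Sptlc2 read 6.81, 7.36 and 7.59 in mutants and 5.54, 5.80 and 6.38 in controls, without overlap, and rose by 1.39 (1.13 to 1.65), while Sptlc1 rose by 0.71. Kdsr, the reductase of the next step, rose by 1.08. Of the ceramide synthases, Cers5 rose by 0.79 and Cers6 by 0.84, and Cers4 fell by 0.46. Degs1, the desaturase that turns dihydroceramide into ceramide, rose by 1.12.

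Several genes that use or break down ceramide were among the 22 risers. Ugcg makes glucosylceramide and rose by 1.19, and B4galt5, which adds galactose to it, read 9.23, 9.81 and 10.07 in mutants and 8.15, 8.29 and 8.78 in controls, a rise of 1.36. Cert1, the ceramide transfer protein, rose by 0.74, the sphingomyelin synthase Sgms1 by 0.43 and the ceramide kinase Cerk by 1.06. Psap, the precursor of the saposins that help lysosomal enzymes reach glycolipids, read 12.31, 12.58 and 12.96 in mutants and 11.63, 11.76 and 11.95 in controls and rose by 0.87. The lysosomal hexosaminidase subunit Hexa rose by 1.08 and the acid ceramidase Asah1 by 0.83. Samd8 (0.44), which makes ceramide phosphoethanolamine, and the galactosidase Glb1 (0.35) were modest risers. Neither was called on the 10 arrays with agreeing files (0.54 and 0.37), and Glb1 was no longer called without WT replicate 1 (0.32, limma adjusted p = 0.0517), without WT replicate 3 (0.32, limma adjusted p = 0.0533) or with the mean of its probes (0.30). Beside Cers4, the fallers of the list were Smpd2 (-0.46), a neutral sphingomyelinase, Fa2h (-0.44), a fatty acid hydroxylase, the desaturase Degs2 (-0.42, but 0.44 as the mean of its probes), the subunit gene Sptlc3 (-0.37), the ceramide synthase Cers1 (-0.34) and Ormdl2 (-0.26), a regulator of serine palmitoyltransferase, whose call (limma adjusted p = 0.0448) was lost under most alternatives, with 12 of the 16 arrays left out singly among them. None of these 7 falls was called without scaling, where they ranged from -0.17 to 0.02. The other 10 tested members were not consistent.

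Other lipid genes moved in both directions. Of 36 genes for membrane lipid flippases, scramblases and phospholipid synthesis, 13 rose (36.1%) and 4 fell (11.1%). The scramblase Ano6 rose by 1.47, and Chpt1, which makes phosphatidylcholine, fell by 1.21 (its 4 probes ran from -1.21 to -0.66). Of 18 elongation and desaturation genes 8 rose (44.4%) and 2 fell, and of 22 cholesterol synthesis genes 9 rose (40.9%) and 5 fell (22.7%). Over all genes 21.2% rose and 31.3% fell. On the 10 arrays with agreeing files 1 cholesterol gene rose and 1 fell. Among 16 fatty acid and triglyceride synthesis genes 3 rose (18.75%) and 7 fell (43.75%). Acacb, the acetyl-CoA carboxylase at the mitochondrion, fell by 1.46 (its other probe gave -0.63) and the carbohydrate-sensing factor Mlxipl by 0.98. The median of the fatty acid and triglyceride synthesis list was -0.22 and turned to 0.18 without scaling. Of 29 fatty acid oxidation genes 7 rose (24.1%, near the 21.2% of all genes tested), among them Acadm (0.78), and 0 fell. The flippase and phospholipid list had 8 risers on the 10 arrays, the elongation list 3, the fatty acid synthesis list 2 risers and 2 fallers, and the oxidation list 6 risers.

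Of the gene lists described here, that of mitosis had the highest median. Of 45 mitosis genes tested, 35 rose (77.8%, against 21.2% of all genes) and 6 fell, with a median of 1.73, and 31 rose on the 10 arrays with agreeing files. Aurkb, a kinase of chromosome segregation, was not well above background on any control array and read 3.77, 4.99 and 5.40 in mutants, at least 2.47-fold higher. Cdca5, which protects cohesion, rose by 2.31, Cdca3 by 2.88 and the checkpoint kinase Ttk by 2.05. Of 43 DNA replication genes 34 rose (79.1%) and 1 fell, with a median of 0.85. Rrm1, the large subunit of ribonucleotide reductase, read 7.64, 7.80 and 8.09 in mutants and 6.06, 6.46 and 6.79 in controls, a rise of 1.39 without overlap. Cyclin D1 (Ccnd1) rose by 2.16, Gins2 of the replicative helicase by 1.84, and Uhrf1, which keeps DNA methylation, by 3.36. Of 25 p53 targets 16 rose (64%) and 3 fell, with Phlda3 up by 2.40, the death receptor Tnfrsf10b by 2.75 and Bax by 0.82. Of these lists, 27 DNA replication genes and 8 p53 targets rose on the 10 arrays.

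Promoters of these division genes are shown because the members moved together. The letters TTTGAA, the core of the cell cycle genes homology region bound by complexes that repress mitotic genes in resting cells, were searched on both strands from 250 bases before to 50 after each start, taken from RefSeq on GRCm38.p6. Of the genes tested, 11322 had a single such window. The letters stood in 26 of 35 mitosis promoters (74.3%) against 15.0% of all 11322, in 17 of 24 mitosis genes called higher in all 4 comparisons and in 9 of the other 11. The E2F-like letters GCGGGAA stood in 12 of 28 DNA replication promoters (42.9%) against 6.62% of all. Among promoters of modest risers the shares were 10.9% and 7.69%. The motif and the response of single members are therefore given side by side only. The 250 bases before the start are printed with the matches in capitals, TTTGAA for Cdk1 (chr10:69352913-69353162, minus strand) and Cdca5 (chr19:6084847-6085096, plus strand), and TTCCCGC, the reverse complement of the E2F-like letters, for Rrm1 (chr7:102441445-102441694, plus strand) and Chaf1a (chr17:56040166-56040415, plus strand). The start lies just after the last base.
Cdk1: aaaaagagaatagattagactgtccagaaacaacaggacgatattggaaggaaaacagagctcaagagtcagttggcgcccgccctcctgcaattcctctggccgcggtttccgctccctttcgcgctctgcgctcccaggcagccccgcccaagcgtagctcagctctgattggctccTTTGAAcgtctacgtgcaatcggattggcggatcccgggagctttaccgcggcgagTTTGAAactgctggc
Cdca5: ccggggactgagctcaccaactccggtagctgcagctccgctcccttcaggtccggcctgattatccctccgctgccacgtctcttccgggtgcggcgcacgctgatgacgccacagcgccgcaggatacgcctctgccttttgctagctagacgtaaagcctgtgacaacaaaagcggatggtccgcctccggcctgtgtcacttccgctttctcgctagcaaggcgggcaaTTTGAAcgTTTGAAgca
Rrm1: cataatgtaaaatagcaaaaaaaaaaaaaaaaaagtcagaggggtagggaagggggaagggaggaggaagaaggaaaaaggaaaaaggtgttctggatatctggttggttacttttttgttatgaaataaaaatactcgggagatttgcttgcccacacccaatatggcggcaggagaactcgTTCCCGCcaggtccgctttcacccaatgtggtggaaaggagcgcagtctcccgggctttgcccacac
Chaf1a: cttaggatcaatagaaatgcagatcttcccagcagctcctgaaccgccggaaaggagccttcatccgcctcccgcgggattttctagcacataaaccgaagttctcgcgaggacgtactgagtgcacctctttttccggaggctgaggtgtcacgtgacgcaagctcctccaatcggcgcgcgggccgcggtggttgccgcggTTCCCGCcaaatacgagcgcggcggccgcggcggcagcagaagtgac

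Targets of NRF2, the factor that induces antioxidant and conjugating enzymes, gave 28 risers of 34 tested (82.35%, against 21.2% of all genes) and 3 fallers. Their median was 0.84, and 19 rose on the 10 arrays with agreeing files. Beside the Gsta genes, Ugdh, which makes UDP-glucuronic acid, read 10.64, 11.78 and 12.22 in mutants and 9.34, 9.82 and 10.04 in controls, a rise of 1.95. Gstm3 rose by 1.38 from an already high control median of 14.23, and the autophagy adaptor Sqstm1 rose by 1.07. The letters TGACNNNGC of the antioxidant response element stood in 6 of 22 NRF2-list promoters (27.3%) against 13.7% of all, in 2 of 11 members called higher in all 4 comparisons and in 4 of the other 11. They also stood in 9 of 27 promoters of the unfolded protein and integrated stress response list (33.3%).

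Structural and vesicle genes rose in large numbers. Of 51 actin cytoskeleton genes 41 rose (80.4%, against 21.2% of all genes) and 2 fell, with a median of 0.68, and 30 rose on the 10 arrays with agreeing files. Tagln2, an actin-binding protein, read 10.70, 11.33 and 12.15 in mutants and 8.16, 8.66 and 9.51 in controls, a rise of 2.71. The heavy chain of nonmuscle myosin Myh9 rose by 1.23, with mutants from 11.39 to 11.99 and controls from 10.33 to 10.83. The small GTPase Rhoc rose by 2.50. Of 28 tubulin and microtubule genes 19 rose (67.9%), led by the tubulin-binding Stmn1 (2.43), and 1 fell. Of 60 vesicle traffic genes 42 rose (70%), among them Ehd4 (1.50) and the clathrin adaptor subunit Ap1s1 (0.80), and 3 fell. Of 47 lysosome and proton pump genes 36 rose (76.6%) and 3 fell, with 6 of the risers modest, and 19 rose on the 10 arrays. Cd63, a tetraspanin of late endosomes, read 10.77, 11.28 and 12.37 in mutants and 7.70, 7.98 and 9.40 in controls, a rise of 3.17. Of 34 integrin, matrix and protease genes 26 rose (76.5%) and 4 fell, with the inhibitor Timp1 up by 3.17 and the laminin chain Lama5 by 1.70. Risers were fewer on the 10 arrays here too, with 9 tubulin and microtubule, 18 vesicle traffic and 13 matrix genes.

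**Figure D4:**
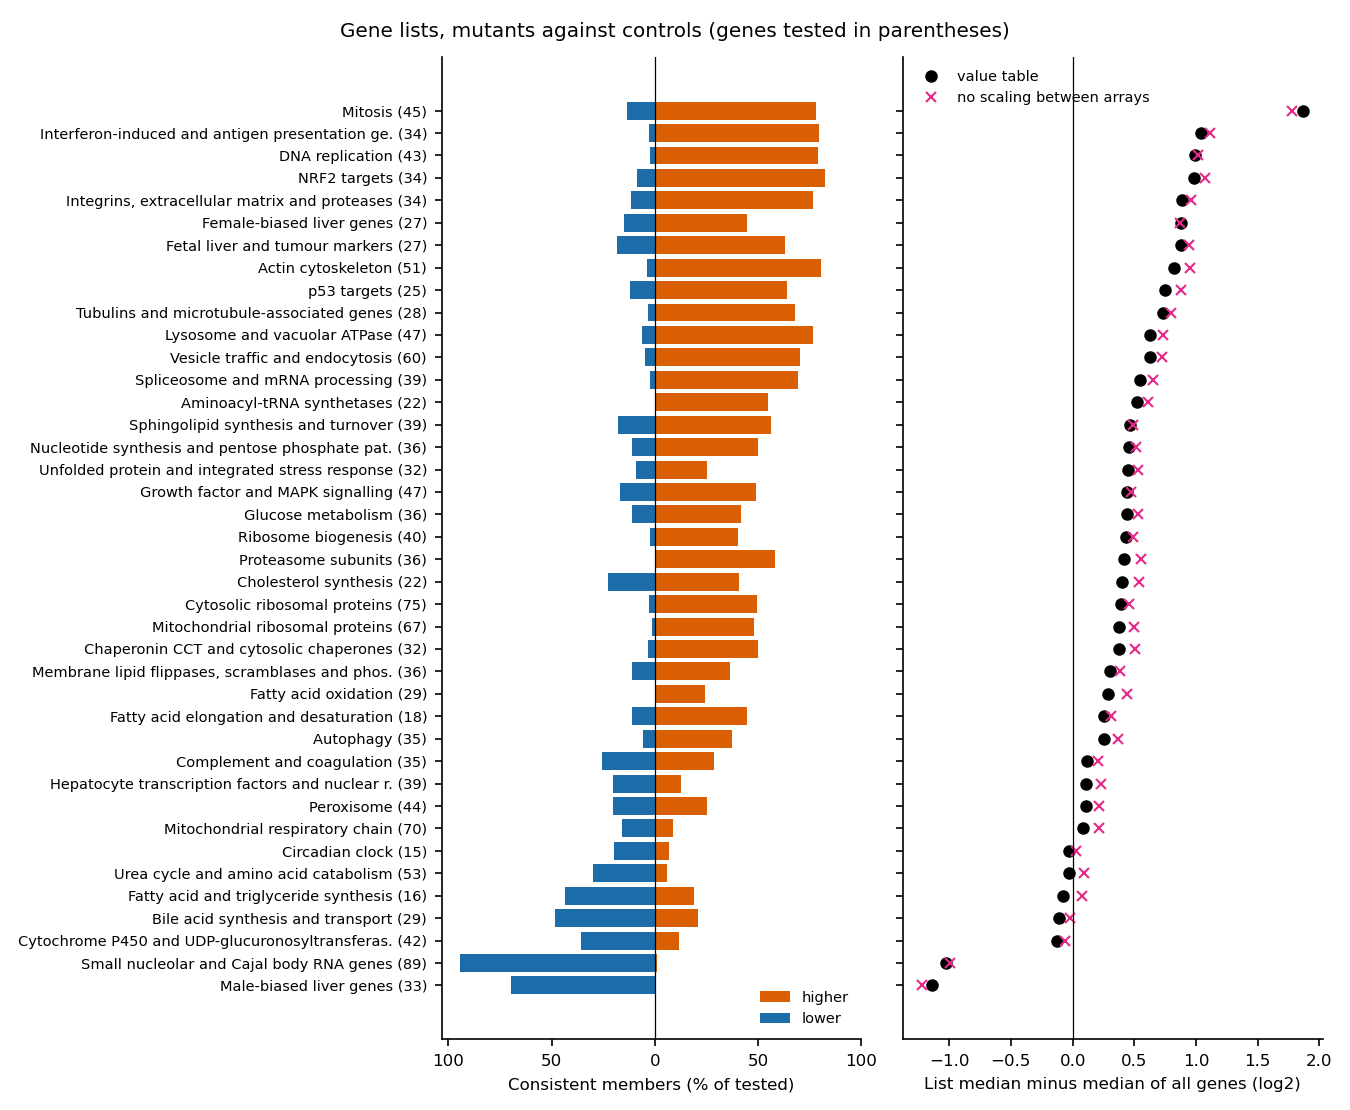
Left, share of the tested members of each gene list (x axis, percent) that rose (right of 0) and fell (left of 0), against 21.2% and 31.3% over all genes tested. Right, list median minus the median of all genes (x axis, log2) in the value table (points) and without scaling between arrays (crosses). Actin, mitosis, DNA replication, NRF2, interferon and lysosome lists lie mostly on the rising side, and small nucleolar RNAs and male-biased genes on the falling side. Small differences of falling lists depend on the scaling between arrays.

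The machinery of RNA and protein synthesis shifted by small amounts. Of 39 spliceosome genes 27 rose and 1 fell (median 0.41), of 36 proteasome subunits 21 rose and 0 fell (0.28), of 75 cytosolic ribosomal proteins 37 rose and 2 fell (0.25), and of 67 mitochondrial ribosomal proteins 32 rose and 1 fell (0.23). The shares of risers were 69.2%, 58.3%, 49.3% and 47.8%, against 21.2% of all genes tested. On the 10 arrays with agreeing files the risers were 5, 3, 0 and 7, with medians of 0.28, 0.16, 0.17 and 0.18. Prpf19 of the spliceosome rose by 0.79, the proteasome subunits Psma1 and Psmd8 by 0.87 and 0.80, and Rpl37a by 0.43. Of 22 aminoacyl-tRNA synthetases 12 rose (54.55%), among them Vars (0.94), and 0 fell, and on the 10 arrays 2 rose. Fbl, the methyltransferase that works with box C/D small nucleolar RNAs, rose by 0.55. It was called neither on the 10 arrays (0.48, limma adjusted p = 0.0551) nor in H/A with WT (0.42, limma adjusted p = 0.0651). The list of small nucleolar and Cajal body RNAs mostly fell, but its box C/D members were not counted apart.

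In 4 hepatocyte metabolic lists the sign of the median depended on the scaling. Of 42 cytochrome P450 and glucuronosyltransferase genes 5 rose and 15 fell, of 29 bile acid genes 6 rose and 14 fell, of 53 urea cycle and amino acid genes 3 rose and 16 fell, and of 70 respiratory chain genes 6 rose and 11 fell. The shares of fallers were 35.7%, 48.3%, 30.2% and 15.7%, against 31.3% of all genes tested, so those of the P450 and urea cycle lists lay near the background. The counts of fallers on the 10 arrays were 10, 9, 2 and 0. The medians of the 4 lists were -0.27, -0.25, -0.17 and -0.06, and 0.05, 0.09, 0.20 and 0.32 without scaling. Cyp3a11, a main drug-metabolising P450, stood against its list with a rise of 1.75 (mutants from 14.90 to 15.37, controls from 13.14 to 14.33), while Cyp2c29 and Cyp2c39 fell by 0.92 and 0.93. Among bile transporters, Abcb4, which exports phosphatidylcholine, rose by 1.02, Abcc4 by 1.43 and Slc51b by 2.88, the latter 2 at the basolateral side, and the uptake carrier Slco1a4 fell by 1.50. The transcription factor Onecut1 fell by 2.20 and the peroxisomal hydrolase Nudt7 by 2.00, and these falls were also called without scaling.

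Interferon-induced and antigen presentation genes gave 27 risers of 34 tested (79.4%, against 21.2% of all genes) and 1 faller. Their median was 0.90, and 19 rose on the 10 arrays with agreeing files. The chemokine Cxcl10 read 4.61, 6.17 and 6.95 in mutants and 1.36, 2.43 and 4.12 in controls, a rise of 3.42. Oasl2 rose by 1.57 and the RNA sensor Ddx58 by 1.23. Macrophage markers moved in the same samples: of 16 tested 11 rose (68.75%, against 21.2% of all genes) and 3 fell (18.75%, against 31.3%). Without scaling 11 rose and 0 fell. Cd14 rose by 2.61, Mmp12 by 2.54, Mpeg1 by 1.43 and Cd5l by 1.44, and the fallers are not among the genes named. The mean log2 level of the 16 markers was 7.72 to 8.60 in mutants and 6.80 to 7.46 in controls, without overlap. Of the 16, 13 were well above background on all 16 arrays. The part of macrophages in the rises of interferon, lysosome, actin and matrix genes was not tested. The mean levels of sinusoidal endothelial, lymphocyte, cholangiocyte, stellate, neutrophil, erythroid and adipocyte markers overlapped between the classes. In that order, 1 of 12, 2 of 10, 2 of 7, 6 of 13, 3 of 9, 1 of 6 and 2 of 5 rose, and 4, 4, 1, 2, 0, 4 and 0 fell. The share of risers was 46.15% in the stellate list, and that of fallers 66.67% in the erythroid list. Without scaling 7 stellate markers rose and 1 erythroid marker fell, and on the 10 arrays 1 rose and 2 fell. Pancreatic acinar markers, of which 3 of 7 were above background on all arrays, were at 4.99 to 5.49 in mutants and 5.42 to 5.93 in controls. Of 27 fetal liver and tumour markers 5 fell and 17 rose (62.96%), among the risers the Golgi protein Golm1 (3.28), the annexin Anxa2 (3.46) and the galectin Lgals1 (2.06), all 3 without overlap. The 10 arrays gave 11 risers among macrophage markers and 12 among fetal liver and tumour markers.

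The single-line comparisons differed in how many genes they called. H/A with WT gave 2745 (8.72%; 6.31% higher and 2.41% lower), H/A with Flox 10315 (32.8%), Del with WT 5571 (17.7%) and Del with Flox 12879 (40.9%). H/A with WT and Del with Flox share no samples, and 2248 genes were called with the same sign in both (81.9% of the first and 17.5% of the second), with 3 of opposite sign. The other pair without shared samples, H/A with Flox and Del with WT, had 3086 genes in common (29.9% and 55.4%), with 5 of opposite sign. Atf3 differed by 4.69 in H/A with WT and by 5.59 in Del with Flox, Hsd3b5 by -6.42 and -5.31, Sptlc2 by 1.31 and 1.47, and Jun by 1.90 and 2.57. Each of these 4 genes was thus called with the same sign in comparisons of different mice. The comparisons come from 1 fit of all 16 arrays, however. They share its estimate of the spread and its slide term, so their calls are not independent.

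**Figure D5:**
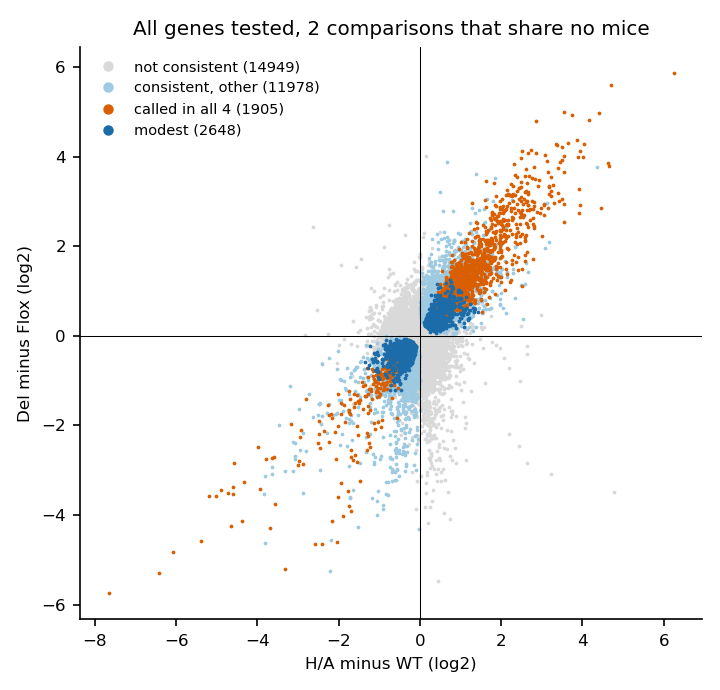
Difference of H/A minus WT (x axis, log2) against Del minus Flox (y axis, log2) for the tested genes, coloured by whether a gene was not consistent, consistent, modest or called in all 4 single-line comparisons. The 2 comparisons share no mice, and of the genes called in both 2248 lie in the quadrants of equal sign and 3 do not.

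Between the mutant lines limma called 0 genes (0.0%), with 2569 at an unadjusted p under 0.05, or 8.16% of genes tested. This does not show that the lines are alike. Between the control lines 7 genes were called (0.0222%), 1 higher in Flox (0.00318%) and 6 lower (0.0191%), including the dehydrogenases Hsd3b3 and Hsd3b6 and the selenium-binding proteins Selenbp1 and Selenbp2, and 0 of the 7 were consistent genes.

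The slides share no mice. Slide 1 alone called 797 genes (2.53%), 642 of them higher (2.04%), and slide 2 alone 12887 (40.9%), and 731 were called on both with the same sign, which is 91.7% of the first and 5.67% of the second. Of all genes tested, 85.1% had the same sign on both slides. Atf3 differed by 4.19 on slide 1 and by 6.09 on slide 2, Ly6d by 4.48 and 4.89, Ugt2b34 by 0.27 and 0.50, and Clptm1 by 0.29 and 0.30. Of all genes 1 had a difference between slides by limma, the condensin subunit gene Ncaph, chosen after its values were seen, which rose by 1.17 on slide 1 and 4.18 on slide 2. The mutants were 3 H/A and 1 Del on slide 1 and 1 H/A and 3 Del on slide 2. Slide and mutant line are thus partly mixed. The comparison of slides had no term for the mutant line, so it does not tell them apart.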

How the data were processed

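Liver RNA of 16 mice was measured on 1-colour Agilent arrays of 60037 probes. The deposited value table holds log2 values whose distributions are the same across arrays, as quantile normalisation leaves them. Partek and Agilent Feature Extraction 11 appear as tools in the submitters' processing notes. The deposited scanner files hold processed spot intensity per the file headers. They were paired to samples by slide and position in the labels and used for detection and for other scalings.

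Probes marked as well above background on 4 or more of the 16 arrays were kept (37814), with the brightest probe per gene. Mutants and controls were compared with limma 3.58.1 (R 4.3.3) with the slide as a block, and single lines with a fit of 4 genotype means and the slide. P-values were adjusted by Benjamini-Hochberg over 31480 genes. They measure the spread between these 16 mice, and the number of arrays limits their precision. In 5 runs on simulated data with 200 changed genes each, 36.8% of changes of 0.5, 86.8% of 1, 98.8% of 2 and 100% of 4 (log2) were recovered, and 4.50% of calls were false. The simulated noise was independent between genes and had no slide effect. Far fewer genes were changed than were called in the data, so these shares do not measure recovery or error there.

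Named genes were the 12 largest rises and falls among consistent genes, the 12 modest rises and falls with the smallest p, up to 4 members with the smallest p of each gene list and the 6 widest gaps per direction between classes that did not overlap, leaving out probes without a symbol. Named outside this rule after their values were seen were Alb, Asah1, Cdk1, Cers1, Cers4, Cers5, Cers6, Cert1, Chaf1a, Dcaf12, Degs1, Degs2, Fa2h, Glb1, Hsd3b3, Hsd3b6, Kdsr, Ncaph, Ormdl2, Pgrmc1, Samd8, Selenbp1, Selenbp2, Sgms1, Smpd2, Sptlc1, Sptlc3 and Ugcg. The comparison, the gene lists and the rule were chosen with earlier results of these data known. Alternatives covered the slide block, the scaling, background correction, file pairing, dim-probe filter, probe choice, moderation, array weights, threshold, each slide alone and each array left out. The centring on tested genes and the 10 arrays with agreeing files were chosen after seeing the data.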

Additional observations from a re-analysis of the deposited data

Results flagged for a closer look

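Of the genes named, each class of 8 arrays was searched for a single array far from the other 7, and 39 of 288 such groups had one, where chance gives about 1 in 20. Values are log2. Many of them belong to 1 control array, Flox replicate 1. It was the lowest control, with the next lowest in parentheses, for Hsd3b5 at 6.09 (11.20), Hsd3b4 at 1.54 (5.50), Elovl3 at 5.98 (9.99), Serpina4-ps1 at 6.71 (11.62), Serpina12 at 7.80 (10.04), Mup3 at 12.52 (14.03), Mup14 at 12.69 (14.53), Slco1a1 at 8.36 (10.62) and Slco1a6 at 5.17 (6.52). In the opposite direction it was the highest control for Cyp2b13 at 8.33 (next 4.40), Cyp3a11 at 14.33 (13.51), Cyp3a16 at 10.62 (9.32), Cyp3a41a at 11.38 (10.09), Cyp3a44 at 10.91 (9.62), Gsta1 at 9.63 (7.76), Gsta2 at 9.18 (7.73), Gstm3 at 15.09 (14.44), Abcc4 at 6.07 (5.43), Aurkb at 2.04 (1.37) and B4galt5 at 8.78 (8.41). In all 20 genes it lay towards the mutants, although Aurkb was not well above background on any control array. Many of the 20 belong to the same gene families and all values come from 1 array, so they are not separate observations.

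WT replicate 2 was the highest control for Asah1 at 7.37, Blnk at 8.10, Ehd4 at 6.78, Jund at 10.09 and Sptlc1 at 9.59, and the lowest for Fa2h at 8.97. The other outlying controls were Flox replicate 2 for Upf1 at 9.03, Flox replicate 3 for Serpinb6a at 5.65, WT replicate 1 for Mpeg1 at 6.94 and WT replicate 4 for Cers5 at 4.02. Among mutants, H/A replicate 3 was the lowest for Mup3 at 5.06 (next 9.02), Mup14 at 5.81 (10.06) and Slco1a1 at 2.07 (6.03), and the highest for Cd5l at 10.79 and Snord99 at 5.47. H/A replicate 1 was the lowest for Ehd4 at 7.02 and Oasl2 at 6.66. Lysmd2 stood at 9.80 in H/A replicate 4 (next 6.93) and Prpf19 at 7.04 in Del replicate 3.

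Ncaph differed in its response between slides by 3.01 (slide 2 minus slide 1, limma interaction, adjusted p = 0.0237), and it rose on both. The mutants were mostly H/A on slide 1 and mostly Del on slide 2, so slide and mutant line are partly mixed. The interaction fit had no term for the mutant line and does not tell them apart.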

How the results depend on the processing

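Against 16580 called, 16531 consistent and 2648 modest genes, the settings without the slide block, with 4 genotype means, 75th percentile scaling by label, normexp, other filters, mean of probes, other moderation, array weights and centring gave 15590 to 19000 called and 1993 to 3521 modest genes. Without scaling 9125 genes were called (415 lower), 9080 were consistent (395 lower) and 167 modest, and Zic5 turned to 0.01, Sptlc3 to 0.02 and Cers1 to 0.00. At a pooled adjusted p under 0.01, 9733 were called and consistent (5225 lower) and 276 modest, with single-line calls still taken at 0.05. With scanner files as listed limma called 0 genes, with 2745 at an unadjusted p under 0.05, consistent and modest counts were 0, and Smpd2 turned to 0.03. With the mean of probes Degs2 turned to 0.44. The listed file's slide as block gave 6662 modest genes. Slide 1 alone gave 797 (642 higher, 155 lower; 248 modest) and slide 2 alone 9049 modest genes. On the 10 arrays with agreeing files, fewer samples gave 3578 called (2572 higher, 1006 lower), 3506 consistent (2517 and 989) and 2124 modest genes, of which 97 were modest in the full set. Leaving out 1 array gave 14263 to 18435 called and 2457 to 5204 modest genes (4498 without Flox replicate 3, 4110 without Flox replicate 4). Apart from the points given, the cause was not tested. Of 144 genes named, 141 kept direction and call with every array left out and 130 under all 4 other scalings. The 10 arrays lost the call of 26, slide 1 that of 66, slide 2 that of 8 and the files as listed that of 138. No paired analysis was possible because the labels give slide and position but no replicate number shared between groups.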
